A study of Mus musculus with 2 samples.

Results

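Axon guidance genes are described here by the accessibility of their DNA in mouse cerebellum. They were the protein-coding genes whose symbols name a semaphorin, plexin, ephrin, Eph receptor, Robo or Unc5 receptor, together with the slits, the netrins Ntn1, Ntn3 and Ntn4, Dcc and both neuropilins. The rule found 68 of the 21829 protein-coding genes of the GENCODE M21 annotation on the mouse assembly mm10. Of these, 34 encode ligands (20 semaphorins, 8 ephrins, 3 slits and 3 netrins). The other 34 encode receptors (14 Eph receptors, 9 plexins, 2 neuropilins, 4 Robo receptors, and 5 receptors of the Dcc and Unc5 families).

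DNase-seq, which finds open chromatin by where the nuclease DNase I cuts DNA in nuclei, was done on cerebellum tissue from 2 male B6CASTF1/J mice, F1 hybrids of C57BL/6J and CAST, at 36 days of age. The labels name no treatment or engineered allele, and the animals form 1 group, so no comparison between conditions and no test across animals was possible. The labels number them as biological replicates but give a single donor entry for both, so their spread may be partly technical. Paired values below belong to replicate 1 and then to replicate 2.

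Axon guidance cues are secreted or membrane-bound proteins that attract or repel growing axons and migrating neurons. Semaphorins act through plexins, with neuropilins as co-receptors for most secreted semaphorins, ephrins through Eph receptor tyrosine kinases, slits through Robo receptors, and netrins through Dcc and Unc5 receptors. In the cerebellum these systems are known for steering granule cell migration and the wiring of climbing and parallel fibres, and many of the genes stay expressed in the adult brain.

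The peak lists held 140127 and 114404 peaks, and the footprint lists held 342409 and 262603 footprints, which are short stretches protected from cutting inside open DNA. Peak height is the authors' deposited signal, used here for ranks and comparisons within an animal. Its scaling is not stated and replicate 1 had the higher promoter peak in 57 of the 59 guidance genes that had one in both animals, so heights of the animals were not read against each other. The tissue label was checked against marker genes. All 8 granule cell markers had a promoter peak in both animals, as did 4 of 6 Purkinje cell markers, whereas none of 4 microglial, 3 liver or 3 muscle markers did in either animal. The Purkinje markers Pcp2 and Skor2 had none. All 5 astrocyte and Bergmann glia markers had one, at median heights of 0.553 and 0.405, while 4 and 3 of 5 oligodendrocyte, 3 and 1 of 4 endothelial and 2 and 1 of 5 forebrain markers had one. Over all protein-coding genes 62.9% had one in both animals, and genes with fewer promoter CpG had one less often. Median CpG per 100 bp was 3.42 for granule cell, 3.45 for Purkinje cell and 5.65 for forebrain markers. It was 1.26 for microglial, 1.26 for liver and 1.42 for muscle markers, and the marker counts were not adjusted for CpG. Because the tissue mixes cell types, fewer cells of a type and less open DNA per cell cannot be told apart. Reads from the CAST alleles were placed on an mm10 genome, and what that did to peak heights was not tested.

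Nearly all axon guidance genes had an open promoter. A promoter was counted as open where any peak overlapped the 1000 bp on both sides of an annotated start of a protein-coding transcript. Of the 68 guidance genes, 64 and 60 had such a peak, against 67% and 63.5% of all protein-coding genes. The peak was present in both animals at 59 guidance genes (28 ligands and 31 receptors), against 62.9% of all genes. Promoter CpG content differed, with a median of 4.22 CpG per 100 bp for guidance genes and 2.65 for all genes. Within 5 equal classes of CpG content the share lay close to that of all genes of the class. In the highest class, 27 of 28 guidance genes were open in both animals, beside 93.2% of all genes in that class. The next classes gave 17 of 20 beside 92.9%, 12 of 13 beside 85%, and 3 of 6 beside 39.6%. The single guidance gene in the lowest class, Plxnb3, was not open in both animals, beside 3.94% of all genes there.

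Of the 9 guidance genes without a promoter peak in both animals, 3 had none in either. They were Slit1, a secreted repellent ligand of the Robo receptors, Robo4, a Robo receptor known from endothelial cells, and Sema3b, a secreted semaphorin. In replicate 1 alone, low peaks were found at Sema4g (height 1.48) and Sema4a (0.537), both transmembrane semaphorins, at the membrane-tethered ephrin genes Efna4 (0.770) and Efnb3 (0.569), and at Nrp1 (1.09). Nrp1 encodes the co-receptor for the secreted repellent Sema3a. An accessible region, a stretch that passed a false discovery rate of 0.05, was present at the Nrp1 promoter in both animals. In replicate 2 alone, the X-linked plexin gene Plxnb3 had a peak of 0.454. All these heights were low for open promoters of their animal, between percentiles 5.31 and 18.3. Counting the starts of noncoding transcripts too gave Sema3b, Sema4a, Nrp1 and Plxnb3 a promoter peak in both animals.

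**Figure D1:**
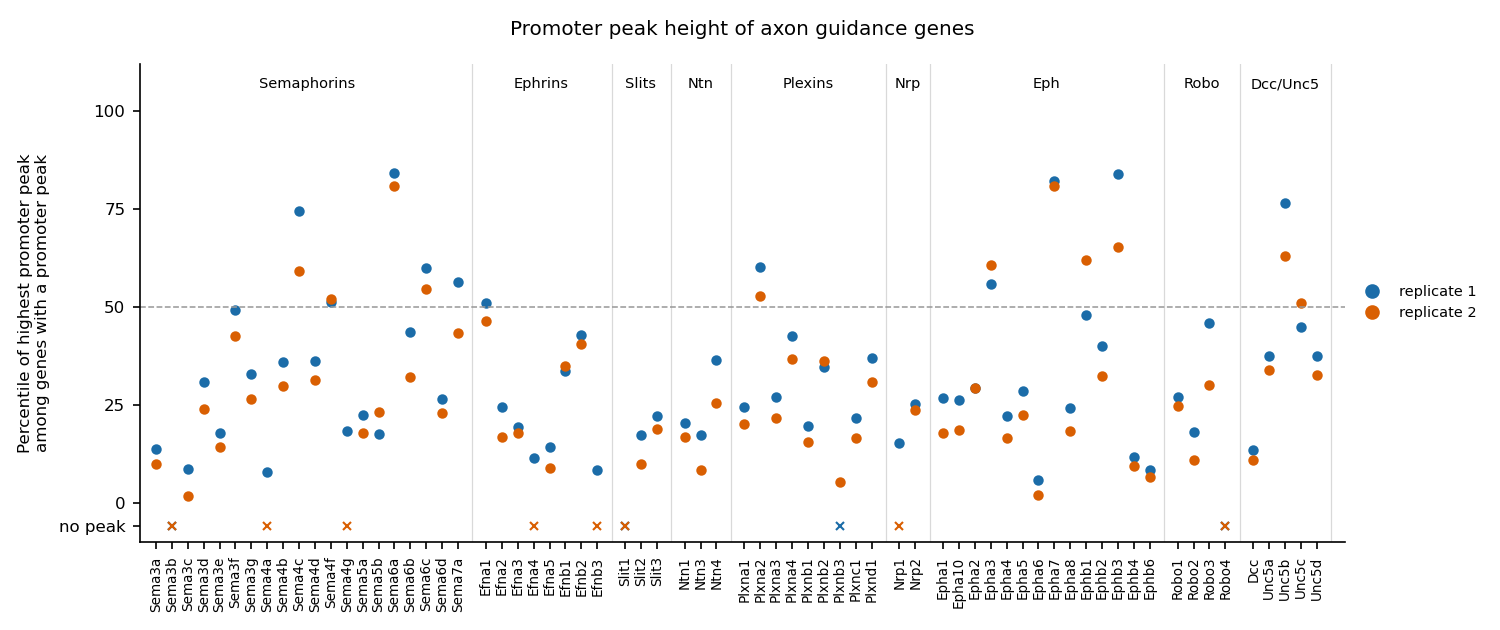
Highest promoter peak of each of the 68 axon guidance genes, as a percentile (vertical axis) among all protein-coding genes with a promoter peak in the same animal, grouped by family. Each point is 1 gene in 1 animal, crosses mark genes without a peak, and the dashed line is the median of open genes; 11 guidance genes lie above it in each animal, 9 of them in both.

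Although open, these promoters had low peaks. The median height over open guidance genes was 3.18 and 2.45, against 9.10 and 6.65 over all open genes. The median guidance gene stood at percentile 26.9 and 24.3 of open genes, and 27 of 64 and 31 of 60 stood below percentile 25. Ligands had medians of 2.82 and 2.51, and receptors 3.39 and 2.42. Heights also followed CpG content over all genes, so each class was read by itself. In the highest CpG class the median was 5.22 and 3.53 for guidance genes, against 12.1 and 8.24 for all genes. In the class below it was 3.05 and 2.38, against 11.1 and 7.68. The middle class had 3.16 and 2.26, against 8.86 and 6.41, and the class with few CpG, class 2, had 1.20 and 0.800, against 2.49 and 2.38. Guidance genes thus had the lower median in both animals in each of these 4 classes. In all 5 classes together, 9 of 64 and 9 of 60 open guidance genes stood above the median of their own class.

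**Figure D2:**
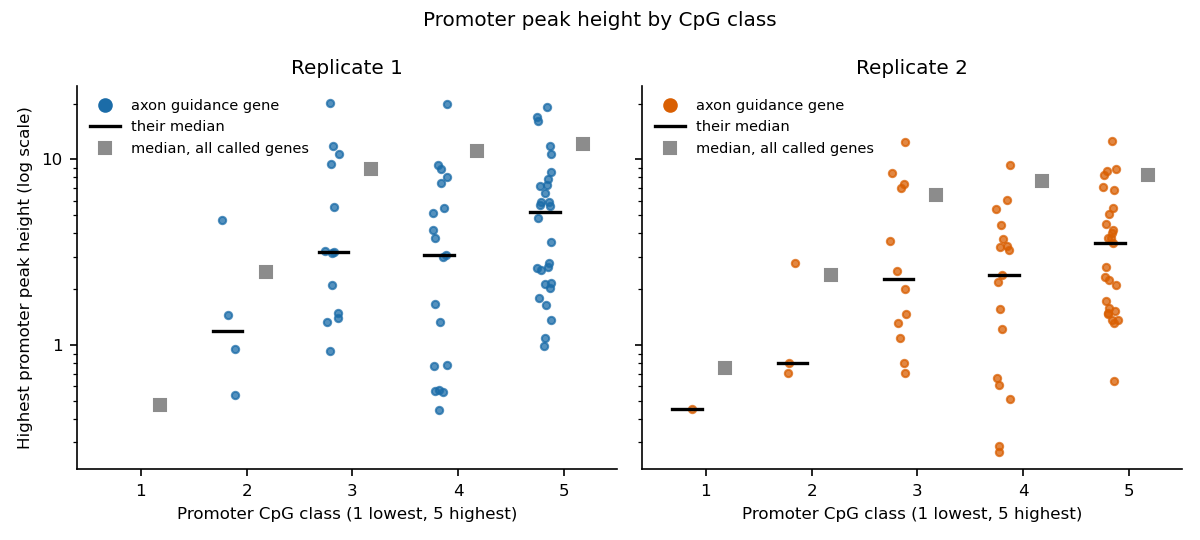
Height of the highest promoter peak (log scale) of open axon guidance genes in each of 5 classes of promoter CpG content, in replicate 1 (left) and replicate 2 (right). Points are genes, black bars their medians and grey squares the medians of all open protein-coding genes of the class; in class 5 the guidance medians are 5.22 and 3.53 and the all-gene medians 12.1 and 8.24.

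Among the ligands, the semaphorins held the highest promoter peak. Sema6a, a transmembrane semaphorin that binds the A plexins and is known for its part in granule cell migration, reached heights of 20.0 and 12.5. That placed it at percentiles 84.0 and 80.7. Sema4c, a transmembrane ligand of Plxnb2, followed at 16.2 and 8.23. The class 6 semaphorins as a group had medians of 9.65 and 5.56, while the secreted class 3 semaphorins had 2.77 and 1.73. Within class 3, the range over open genes ran from 0.575 and 0.267 at Sema3c to 8.86 and 5.38 at Sema3f, a ligand of Nrp2. Sema3a, the repellent first known as collapsin, was near the low end at 0.948 and 0.711. That peak lay at a coding start inside the gene, and Sema3a was not open in both animals by its 5′-most coding start alone. Ephrins, which are tethered to the membrane by a lipid anchor (A class) or a transmembrane segment (B class), had their highest peaks at Efna1 (9.28 and 6.01) and Efnb2 (7.28 and 5.08). Efnb1, which lies on the X chromosome and so has 1 copy in males, had 4.84 and 4.19. Efna5, a ligand of Epha4 among others, had 0.992 and 0.642. Netrin promoters were low as a family, with Ntn4, a netrin related to laminins, at 5.60 and 2.64 and Ntn1, the netrin that attracts axons through Dcc, at 1.78 and 1.36. The Ntn4 values come from different sites in the animals. Slit promoters were at 2.14 and 1.58 for Slit3 and 1.34 and 0.711 for Slit2.

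Among the receptors, Eph promoters covered the widest range. Epha7 had peaks of 19.2 and 12.5 and Ephb3 of 19.9 and 9.28, both among the 5 highest of the guidance genes in each animal. Epha6 had 0.444 and 0.286, the lowest of the Eph genes, and Ephb6, a family member without kinase activity, had 0.558 and 0.514. Ephb1 reached 8.60 and 8.67 and Ephb2 6.61 and 3.77. The plexins were led by Plxna2, a receptor of Sema6a, at 11.8 and 7.12, and by Plxna4, which also binds Sema6a, at 7.20 and 4.48. The neuropilin Nrp2 had 2.77 and 2.32. Robo3, known for its part in axons crossing the midline, had 8.04 and 3.40, above Robo1 with 3.20 and 2.52 and Robo2 with 1.45 and 0.800. The Robo1 and Robo3 peaks lay in windows of coding starts inside those genes. Neither gene was open in both animals when only its 5′-most coding start was counted, and Robo3 was not with windows of 500 bp. Of the netrin receptors, Unc5b was highest at 16.9 and 8.86, followed by Unc5c, the gene mutated in rostral cerebellar malformation, at 7.80 and 6.85. Dcc itself had 0.927 and 0.800, at percentiles 13.5 and 11.0, and its promoter was not open in both animals by the smaller peak list.

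Ligands and receptors known to pair in the cerebellum stood at like ranks in some cases and apart in others. Sema6a and its receptor Plxna2 were both above the median of open genes in both animals, while Plxna4 stood at percentiles 42.5 and 36.6. Sema3a stood at 13.8 and 9.91, and its co-receptor Nrp1 at 15.3 in replicate 1. Ntn1 stood at percentiles 20.2 and 16.7, while its receptor Unc5c stood at 44.9 and 51.0 and its receptor Dcc at 13.5 and 11.0. Slit2, with percentiles of 17.4 and 9.91, stood below Robo1 with 27.0 and 24.7 and beside Robo2 with 18.1 and 11.0. The ranks of Sema3a and Robo1 rest on starts inside those genes. Efna5 stood at 14.2 and 8.88 and Epha4 at 22.1 and 16.4. Efnb1 stood at 33.5 and 34.9. Efnb2 stood at 42.8 and 40.4, close to Ephb2 at 40.0 and 32.4 and below Ephb1 at 48.0 and 61.9.

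Many guidance genes have more than 1 separate promoter window. Of 26 such genes, 16 had a peak of both animals in 1 window only, 6 in every window and 3 in none. Sema6d, a transmembrane semaphorin, was open in all 3 of its windows, and Robo2 in 1 of 5. The highest promoter peaks of the animals did not overlap at 6 guidance genes (Efna1, Efnb1, Ntn4, Plxnb1, Plxnb2 and Sema5b), where values of the animals come from different sites. At Ntn4 the replicate 1 peak only reached the edge of the window. A replicate 2 peak of 5.71 at that same site fell outside the window and was counted as distal. The replicate 1 peaks of Efna1 and Efnb1 also had midpoints just outside their windows, 1008 and 1070 bp from a start. No highest promoter peak of a guidance gene also lay in the window of another protein-coding gene.

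Promoter sequences of 4 genes show which bases just upstream of a start lay in footprints. They are the 250 bases before the RefSeq start (GRCm38.p6, the patch level of mm10 used here) of the highest pair and the lowest pair among 28 guidance genes with a usable sequence outside annotated exons; RefSeq's promoter table had 58 of the 68 genes. Each is written on the strand of its gene, and capitals mark bases inside a footprint in both animals. Epha7 (chr4:28812881-28813130, plus strand) had 103 such bases and Unc5b (chr10:60831582-60831831, minus strand) had 51. The low promoter of Ephb4, a receptor of Efnb2 (chr5:137349859-137350108, plus strand, heights 0.786 and 0.662), had 13, and that of Efna5 (chr17:62881318-62881567, minus strand) had 0. The Efna5 window lies outside the highest promoter peak of Efna5 in both animals, which is farther upstream.
Epha7: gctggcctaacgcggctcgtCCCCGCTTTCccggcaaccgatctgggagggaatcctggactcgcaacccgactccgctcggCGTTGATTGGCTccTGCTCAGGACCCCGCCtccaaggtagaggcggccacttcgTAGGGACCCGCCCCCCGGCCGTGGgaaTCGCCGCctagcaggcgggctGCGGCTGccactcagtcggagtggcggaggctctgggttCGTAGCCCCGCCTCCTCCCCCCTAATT
Unc5b: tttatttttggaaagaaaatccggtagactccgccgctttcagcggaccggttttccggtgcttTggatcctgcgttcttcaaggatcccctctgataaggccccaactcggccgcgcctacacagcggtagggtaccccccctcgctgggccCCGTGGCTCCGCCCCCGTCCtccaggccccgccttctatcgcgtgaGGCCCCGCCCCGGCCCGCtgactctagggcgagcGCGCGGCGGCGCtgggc
Ephb4: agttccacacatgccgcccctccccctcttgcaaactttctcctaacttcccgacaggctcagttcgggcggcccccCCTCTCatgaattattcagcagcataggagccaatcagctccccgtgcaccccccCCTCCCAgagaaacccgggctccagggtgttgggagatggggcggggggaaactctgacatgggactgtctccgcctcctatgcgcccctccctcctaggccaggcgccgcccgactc
Efna5: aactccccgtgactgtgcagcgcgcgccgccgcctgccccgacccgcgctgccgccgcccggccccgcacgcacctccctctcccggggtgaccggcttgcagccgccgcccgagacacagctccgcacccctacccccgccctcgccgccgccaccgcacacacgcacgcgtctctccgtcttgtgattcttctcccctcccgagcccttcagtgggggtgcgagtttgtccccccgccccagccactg
The SP/KLF consensus GGGGCGGGG, read on both strands, was found in Unc5b, Ephb4 and Efna5, and in 10.4% of 32851 RefSeq upstream windows of that length. The Unc5b copy, at position 202 from the 5′ end, lay wholly in capitals, and the copies in Ephb4 at position 171 and Efna5 at position 234 did not. The Epha7 window held no match to any of the 16 consensus sequences searched.

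Outside promoters, guidance genes had more open sites than the median gene. Distal peaks were those in a gene or within 10000 bp of it, leaving out every promoter window. The median guidance gene had 9 and 7 of them (ranges 0 to 70 and 0 to 55), against 2 and 1 over all genes. Over both animals the guidance median was 8, and it was 5 with the smaller peak list, 3 with peaks above the median height and 12.5 with 50000 bp on both sides. Per 10000 bp of such territory the medians were 0.805 and 0.619, against 0.398 and 0.326. Guidance genes are long, with a median of 51458 bp against 17396 bp, so genes of like length were compared. Below 20000 bp the medians were 3 and 2 for 20 guidance genes, against 1 and 1 for all genes. From 20000 to 100000 bp they were 9 and 6 for 16 guidance genes, against 3 and 2. From 100000 to 400000 bp they were 12 and 13 for 21 guidance genes, against 9 and 8. Above 400000 bp they were 21 and 25 for 11 guidance genes, against 25 and 24 for all genes, so at that length the medians were close.

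**Figure D3:**
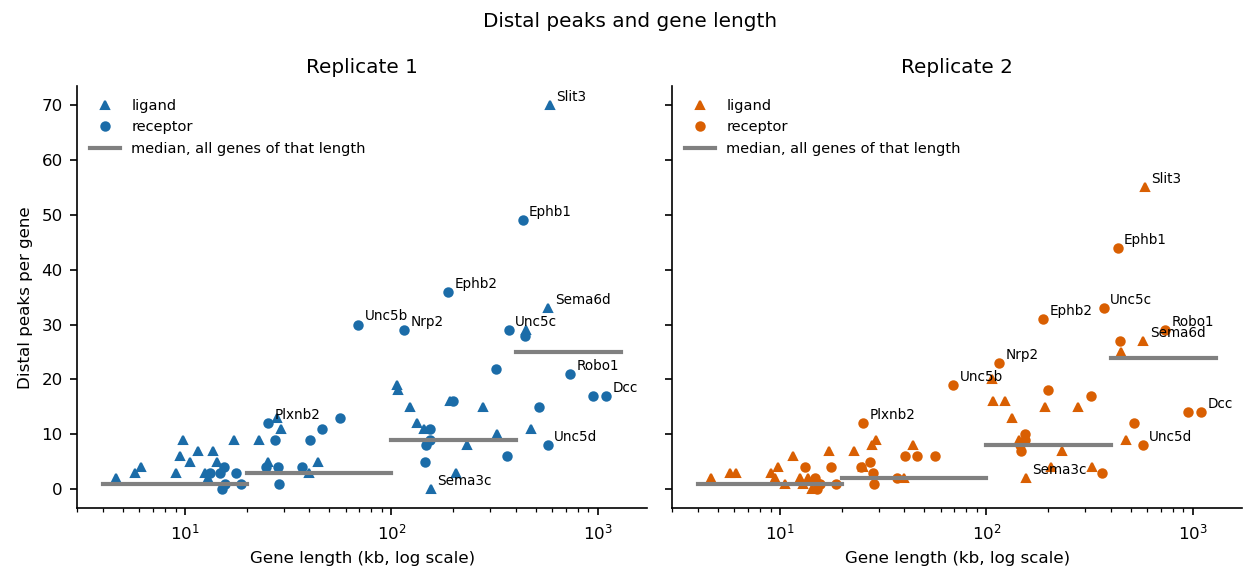
Number of distal peaks of each axon guidance gene against gene length (log scale), in replicate 1 (left) and replicate 2 (right). Triangles are ligands, circles receptors, and grey bars the median of all protein-coding genes in 4 length classes; Slit3 has 70 and 55 distal peaks, against all-gene medians of 25 and 24 in its class.

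The secreted ligand Slit3 had the most distal peaks, 70 and 55, which ranked 35 among all protein-coding genes by the mean of the animals. Its promoter peak, at percentiles 22.2 and 18.7, was low. Slit1 had 11 and 9 distal peaks and Slit2 had 10 and 4, so the slits differed widely. Ephb1, an ephrin-B receptor, had 49 and 44 (rank 79), and Ephb2, another ephrin-B receptor, had 36 and 31 (rank 179). The netrin receptor Unc5c came next among receptors with 29 and 33 (rank 215), then Plxna4 with 28 and 27, Nrp2 with 29 and 23, Robo1 with 21 and 29, and Unc5b with 30 and 19. Dcc had 17 and 14, and Robo2 15 and 12. Sema6d had 33 and 27 distal peaks and Sema5a, a semaphorin with thrombospondin repeats, had 29 and 25. Ntn4 had 19 and 20, Ntn1 had 16 and 15, Efna5 had 15 and 15 and Plxna2 had 16 and 18.

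Per length the order was another. Unc5b had 3.37 and 2.14 distal peaks per 10000 bp of territory, the highest mean of the guidance genes, and Plxnb2, a plexin known from granule cell precursors, had 2.65 in each animal. Sema4f (2.71 and 1.67), Sema4c (3.03 and 1.35), Sema6b (2.42 and 1.88), Sema3b (2.22 and 1.90), Sema3f (2.25 and 1.84) and Sema7a (2.11 and 1.64) also stood in the top 10, with Nrp2 (2.14 and 1.70) and Ephb2 (1.73 and 1.49). Of these 10 genes, 6 encode semaphorins, beside 20 of all 68 guidance genes. At the short genes Sema4c, Sema3b and Sema6b most of the territory is flank, and other protein-coding genes reach into it. At the other end, the long gene Epha5 had 0.157 and 0.0784. The long genes Dcc and Unc5d had 0.152 and 0.125, and 0.135 and 0.135. Epha6 had 0.175 and 0.144. Ephb6 had no distal peak in either animal, and Sema3c had 0 and 2.

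Distal sites lay mostly in introns, which held 74.5% and 76.5% of the 819 and 695 counted at guidance genes. Exons held 11.7% and 8.92%, the 10000 bp upstream 7.20% and 7.48%, and those downstream 6.59% and 7.05%. A start of some annotated transcript, coding or not, lay within the promoter distance of 9.28% and 8.35%. Another protein-coding gene reached into the territory of 35 of the 68, so a distal peak is assigned here by position only. Robo3 and Robo4, which are neighbours, share their strongest distal peak. Of the distinct distal peaks, 552 of 816 (67.6%) and 552 of 691 (79.9%) overlapped a peak of the other animal, against 62.0% and 78.0% over all distal peaks. Median heights at guidance genes were 1.28 and 1.06 for shared and 0.428 and 0.395 for unshared distal peaks. A footprint was present in 83.6% and 74.5% of distal peaks of guidance genes, against 78.0% and 72.4% of all. Counting promoter and distal footprints together, guidance genes had medians of 28 and 19, against 10 and 8 over all genes. These counts cover whole territories, which are longer for guidance genes, and were not compared at like length. Slit3 had 181 and 132 footprints, Ephb1 123 and 81, and Ephb2 121 and 104.

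At many guidance genes the strongest site lay outside the promoter windows. The strongest distal peak was higher than every promoter peak, or there was no promoter peak, in both animals at 41 of the 65 guidance genes with a distal peak in both, against 41.5% of 14075 such genes overall. By length the shares were 50% of 18 guidance genes below 20000 bp, against 46.9% of all genes, and 68.8% of 16 from 20000 to 100000 bp, against 35.0%. They were 60% of 20 from 100000 to 400000 bp, against 41.6%, and 81.8% of 11 above that, against 59.8%. The highest such distal peak in replicate 1 was at Sema3b, with 36.0 and 17.7 and no promoter peak. At Slit3 the strongest distal peak was 16.5 and 10.4, beside promoter peaks of 2.14 and 1.58. Ntn1 had distal heights of 11.7 and 8.98 beside promoter heights of 1.78 and 1.36, and Sema5a had 13.2 and 7.05 beside 2.15 and 1.47. At Epha4 the distal heights were 11.3 and 6.43 beside promoter heights of 2.11 and 1.32. The Sema5a and Epha4 distal peaks lay just outside the promoter windows, within 2000 bp of their gene starts. The Sema5a peak was also near the start of a Sema5a transcript not annotated as protein-coding. Shares of genes with a higher distal peak were not computed with a promoter window of 2000 bp. Unc5b had distal peaks of 30.1 and 22.0, above its own high promoter. That Unc5b peak lay near the start of a processed transcript of Unc5b that is not annotated as protein-coding. In both animals the strongest distal peaks of Sema4f, Sema4d, Plxnd1, Epha10, Ntn3 and Efna4 also lay near starts of transcripts not annotated as protein-coding. At Epha10, Ntn3 and Efna4 these transcripts belong to another gene. All these genes are in the counts above, and how often this held over all genes was not counted. The opposite was seen at Epha7 (distal 5.46 and 3.26), Sema6a (4.36 and 4.04) and Ephb3 (0.580 and 0.533), where the promoter was the highest site.

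**Figure D4:**
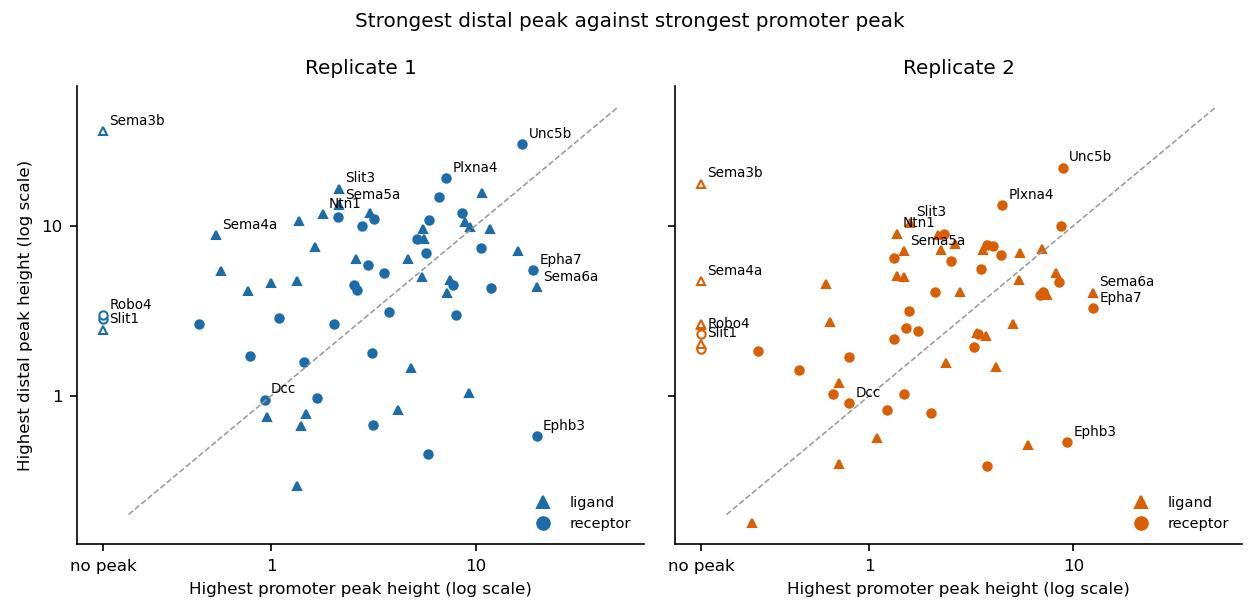
Height of the strongest distal peak against the height of the highest promoter peak of each axon guidance gene (both log scales), in replicate 1 (left) and replicate 2 (right). Triangles are ligands, circles receptors, open symbols at the left edge are genes without a promoter peak, and genes above the dashed line of equal height have their strongest site outside promoters, as at Sema3b, Slit3 and Plxna4.

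Distal sites of 5 genes stand for the ligand and receptor systems, each the best-ranked peak of at most 300 bp of its system that both animals shared and that touched no annotated exon, those of noncoding transcripts included. A higher distal peak of Unc5b touches an exon of a noncoding transcript of that gene and is not printed. Bases are given on the plus strand of mm10, with capitals for bases inside a footprint in both animals. Ephb1 had an intronic site at chr9:102298101-102298280 (heights 11.8 and 9.91), 56502 bp from its start. Unc5b had one at chr10:60817001-60817180 (18.3 and 9.05), 14291 bp from its start, and Plxna4 at chr6:32397181-32397380 (19.1 and 13.2), 190911 bp from its start. The Slit3 site, also intronic, was at chr11:35587261-35587400 (16.5 and 10.4), 466107 bp from the start. The Sema3b site lay upstream of the gene at chr9:107612741-107612900 (36.0 and 17.7), 3592 bp from the nearest Sema3b start. It ranked 141 and 681 among all peaks of its animal, and 2 other protein-coding genes reach into the Sema3b territory.
Ephb1: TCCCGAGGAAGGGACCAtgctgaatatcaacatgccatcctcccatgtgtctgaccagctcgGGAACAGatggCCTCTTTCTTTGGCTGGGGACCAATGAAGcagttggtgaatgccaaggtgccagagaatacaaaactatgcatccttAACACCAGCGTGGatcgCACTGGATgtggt
Unc5b: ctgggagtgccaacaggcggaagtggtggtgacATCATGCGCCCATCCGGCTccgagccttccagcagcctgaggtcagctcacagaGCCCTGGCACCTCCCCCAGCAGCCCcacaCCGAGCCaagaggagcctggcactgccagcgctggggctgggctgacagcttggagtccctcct
Plxna4: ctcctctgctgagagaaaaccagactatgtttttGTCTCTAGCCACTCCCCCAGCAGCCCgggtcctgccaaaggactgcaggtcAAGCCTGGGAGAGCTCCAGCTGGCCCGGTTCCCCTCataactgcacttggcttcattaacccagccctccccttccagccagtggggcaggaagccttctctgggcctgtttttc
Sema3b: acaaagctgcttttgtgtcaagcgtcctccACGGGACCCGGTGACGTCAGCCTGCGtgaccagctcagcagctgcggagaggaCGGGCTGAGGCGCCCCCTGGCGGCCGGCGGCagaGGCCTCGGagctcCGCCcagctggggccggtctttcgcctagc
Slit3: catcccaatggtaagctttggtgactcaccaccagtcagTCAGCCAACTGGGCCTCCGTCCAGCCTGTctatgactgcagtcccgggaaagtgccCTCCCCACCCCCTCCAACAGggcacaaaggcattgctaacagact
Footprints common to both animals covered 74, 51, 62, 69 and 49 bases of these sites in the order printed. The Sema3b site held the CRE consensus TGACGTCA at position 42, wholly in capitals. It also held the CTCF core AGGGGGCG on the minus strand at position 94, again in capitals. The Slit3 site held the AP-1 consensus TGANTCA at position 22, outside capitals, and the Plxna4 site held the E-box CAGCTG at position 102 in capitals. The Sema3b site also held that E-box at positions 69 and 135, the Ephb1 site the NeuroD-type E-box CAGATG at position 67, and the Ephb1, Unc5b and Plxna4 sites the nuclear factor I site TTGGCA on the minus strand. None of these other copies lay wholly in capitals. The Unc5b and Plxna4 sites, both intronic but on different chromosomes, shared a run of 15 bases on the same strand, CTCCCCCAGCAGCCC, which is in capitals in both. The CTCF core and the run were chosen for counting after these sequences were seen.

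Consensus sequences were counted on both strands in the 200 bp around the midpoint of every distal peak. The E-box CAGCTG, a motif of basic helix-loop-helix factors, was in 18.6% and 19.4% of windows at guidance genes, against 17.4% and 15.7% of all distal windows. Of its copies at guidance genes, 31.8% and 26.4% were centred in a footprint, against 20.9% and 18.8% of copies in all windows. The NeuroD-type E-box CAGATG was in 27.3% and 30.2%, against 25.1% and 27.3%. The nuclear factor I site TTGGCA was in 24.8% and 26.6%, against 21.8% and 25.2%. The ZIC consensus CAGCAGG was in 17.0% and 15.2%, against 15.7% and 15.7%. AP-1 was in 5.76% and 7.09%, against 7.04% and 7.93%, and 2 of 49 and 0 of 51 copies at guidance genes were centred in a footprint, against 7.61% and 7.52% of copies in all windows. The CRE was in 0.490% and 0.289%, against 0.336% and 0.394%, and the CTCF core in 2.45% and 1.74%, against 2.38% and 2.22%. The 9 letters CCCCAGCAG of the shared run were in 1.10% and 1.45%, against 0.988% and 0.860%. The SP/KLF consensus was in 1.47% and 1.30%, against 1.46% and 1.11%, the SOX consensus ACAATG in 7.35% and 6.66%, against 8.12% and 9.07%, and the ROR consensus TAGGTCA in 1.96% and 2.46%, against 1.99% and 2.39%. The EGR (GCGTGGGCG), RFX (GTTGCCATG), MEF2 (CTATTTATA), ETS (CCGGAAGT) and YY1 (AAGATGGCG) consensus sequences were each in at most 5 windows at guidance genes in either animal. The ZIC consensus and the shared run have the letters CAGCAG in common, so their matches can overlap. These windows share peaks and base composition within an animal, and the differences were not tested.

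The genes acting downstream had a higher median promoter peak than the ligands and receptors themselves. Of 46 genes for intracellular effectors, such as the collapsin response mediators and cytoskeletal kinases, 46 and 45 had a promoter peak. Their median heights were 12.2 and 8.81, at percentiles 61.3 and 62.6. The highest were Nck1, an adaptor that links receptors to actin (30.2 and 20.3), Dpysl2, a collapsin response mediator (30.1 and 18.2), and the kinase gene Gsk3b (28.0 and 24.6). Kalrn, the kalirin gene, had 0.602 in replicate 1 alone. A further 18 guidance ligands and receptors outside the families above had promoter peaks at 16 and 14, with medians of 3.85 and 2.73 at percentiles 29.6 and 26.0. Among them Rgmb, a ligand of neogenin, had 30.5 and 16.5, the neogenin gene Neo1 had 18.9 and 10.3, and Cntn2, a contactin of axons, had 10.5 and 5.59. Flrt1, an Unc5 ligand, and Unc5cl, an Unc5-like gene, had no promoter peak. Of all 64 genes on both lists, 59 had a promoter peak in both animals. Distal counts of the effectors, with medians of 8.5 and 7, were close to the 9 and 7 of the guidance genes.

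The animals ranked the guidance genes alike. Spearman's rank correlation between them was 0.967 for promoter height over the 59 genes open in both, and 0.920 for distal counts over all 68, as a description across genes with shared length and sequence.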

How the data were processed

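DNase-seq libraries of cerebellum from 2 mice were analysed. Per the deposited file descriptions, each animal's peaks, footprints and false discovery rates came from its own mm10 alignments. Names of the aligner and callers were not given in the sources used here. The peak value is the deposited signal, a height whose scaling is not stated, so sequencing depth is unknown and no interval was computed. The deposited false discovery rates were treated as p-value measures, and stretches at or below 0.05 were merged into accessible regions. Each footprint carries the deposited p-value entry 0.01, and only footprint positions were used. The larger peak list of each animal was the main one.

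Gene models were GENCODE M21 (1 entry per symbol, chromosome M left out) and sequences GRCm38.p6. Counts were made with Python 3.11.15 and numpy 2.4.6, and the counting was checked on simulated peaks. The members and lists were chosen with earlier results of these data known. No set test or resampling was used. Named genes were, per family, the 2 highest promoters and the 2 largest distal counts, all genes open in 1 animal or none, the 10 densest, and known cerebellar pairs; others show the ends of a range or share a named site and were chosen after their values were seen. Alternatives varied windows, starts, peak lists, flanks and overlap, and left out each animal.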

Additional observations from a re-analysis of the deposited data

How the results depend on the processing

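The count of guidance genes with a promoter peak in both animals, 59, ranged from 49 to 64 under its alternatives, and the 59 of the pathway lists ranged from 55 to 62; all were within 1.5 times. The 49 came from peaks above the median height of their list, which dropped Dcc, Efna5, Epha6, Ephb4, Ephb6, Ntn3, Robo2, Sema3a, Sema3c and Slit2. The smaller peak list dropped Dcc, Efna2, Ephb6 and Ntn3. Counting only the 5′-most coding start of each gene gave 56 and dropped Robo1, Robo3 and Sema3a. A promoter window of 500 bp gave 57 and dropped Epha10 and Robo3. Starts of transcripts of every type, an alternative chosen after the data were seen, gave 63 and added Sema3b, Sema4a, Nrp1 and Plxnb3, so the missing Sema3b promoter peak depends on counting coding starts only. The median promoter height, 2.81 over both animals, became 3.40 with a window of 2000 bp. The median of 8 distal peaks became 5.5 in the gene body only, 12.5 with 50000 bp on both sides, 5 with the smaller list and 3 with peaks above the median height; each of these counts fewer peaks or more territory by construction. The share of distal peaks found in both animals, 73.8%, became 64.8% when at least 50% of both peaks had to overlap. Of 41 alternatives, these 6 moved a value, and the median of 23.5 footprints did not move beyond its limits. The limit was 1.5 times for counts of genes and the standard deviation between the animals for the other values. Leaving out 1 of 2 animals moves their mean by less than that standard deviation by construction. For heights, distal peaks and footprints it therefore could not count as a move. Leaving out each animal gave 60 and 64 open guidance genes, 59 and 62 pathway genes, heights of 2.45 and 3.18, and 7 and 9 distal peaks. Each value rests on 2 animals of unknown depth, so a promoter without a peak cannot be called closed here.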
